A study of Homo sapiens with 9 samples.

Results

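Transcript levels of 49 cell cycle and proliferation genes were followed through 9 RNA-Seq libraries of the human colorectal cancer cell line SW480 and of 2 derivatives that express BASP1. The genes were taken from a list of components of DNA replication and mitosis by matching Ensembl identifiers to gene symbols. This rule uses names only, although the list was drawn up with earlier results of these data known. All 49 were found among the 63677 gene identifiers of the count tables, and all 49 passed the filter on low counts in every comparison. They fell into 7 role groups. There were 12 genes of replication and nucleotide supply, 10 cyclin, CDK and CDC25 genes, 4 transcription factors, 7 genes of the spindle checkpoint and anaphase, 5 mitotic kinase and passenger complex genes, 9 kinetochore, motor and spindle genes, and the 2 chromosome markers MKI67 and TOP2A.

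The cell cycle alternates genome duplication in S phase with chromosome segregation in mitosis. E2F factors switch on the replication genes at the end of G1, after cyclin-dependent kinases have released them from the pocket proteins, and MYBL2 and FOXM1 switch on the mitotic genes later in the cycle. Resting cells hold both sets of transcripts low, so their summed level in a culture is a common readout of how many cells are cycling. In bulk RNA, however, fewer cycling cells and less transcript per cycling cell cannot be told apart.

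Parental SW480 cells, labelled wild type, stem from a primary colon adenocarcinoma. SW480-B is a line grown from a single geneticin-resistant clone with the BASP1 coding sequence in pcDNA3, driven by the cytomegalovirus promoter. In SW480-gRNA-B-all the endogenous BASP1 gene is activated by CRISPR, with dCas9-VP64, MS2-P65-HSF1 and pooled guide RNAs delivered by lentivirus in steps that passed through a single-cell clone carrying the activators. Each line had 3 libraries of poly(A)-selected, stranded RNA, all labelled as 1 batch, and the controls were untransfected parental cells rather than a vector line. A single treatment label, BASP1 activation, stands on every library including the parental ones, so the lines were told apart by their names alone. The sources call the RNA isolated in triplicate without naming separate cultures, so that p-values measure the spread between these preparations only.

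The libraries held 25238831 to 29355669 counts on genes, and 3 counts corresponded to 0.1 to 0.116 CPM (counts scaled to a common library size). BASP1 itself stood at 11.9, 8.03 and 0.691 CPM in the 3 SW480 libraries, at 268, 268 and 250 CPM in SW480-B and at 167, 303 and 300 CPM in SW480-gRNA-B-all (log2 differences from SW480 of 5.29, adjusted p = 0.0293, and 5.21, adjusted p = 0.025, by edgeR). Without replicate 1 or 3 of SW480 both calls held, and without any other library they did not, with log2 differences from 4.71 to 5.93 over these fits. Replicates 2 and 3 of SW480-gRNA-B-all were nearly alike, with 0.428% of 14023 genes more than 2-fold apart, whereas the other pairs of replicates had 8.63% to 27.9%. Their counts still differed beyond sampling noise (chi-square per degree of freedom 3.13), and results were recomputed with both libraries summed into 1. With the pair summed, the BASP1 call of SW480-gRNA-B-all against SW480 was lost (log2 5.106), as it was without a filter (5.275). The epithelial marker KRT8 stood at 3547 to 6210 CPM in all libraries. All 7 tested colon epithelial markers lay below 0 when the CRISPR line was set against SW480, and CDX2 (log2 -3.28) and VIL1 (-4.44) passed as lower. In SW480-B 4 of 7 lay above 0 and VIL1 (-2.94) passed as lower. CDX2 was at 30.4 to 41.9 CPM in SW480, 58.2 to 67.4 CPM in SW480-B and 2.37 to 5.52 CPM in SW480-gRNA-B-all, and KRT20, not tested, did not exceed 0.896 CPM. Of 6 fibroblast markers, COL3A1 had 0 counts throughout, LUM was at 6.48, 2.1 and 0.982 CPM in SW480 and at most 0.0356 CPM elsewhere (passing as lower in both BASP1 lines), and COL1A1 was at 2.26 to 10.7 CPM and passed as higher in SW480-gRNA-B-all (1.21). Of 5 leukocyte markers, PTPRC did not exceed 0.218 CPM, and CD14 reached 2.67 CPM in SW480-gRNA-B-all. LYZ was at 0.62 to 1.6 CPM in SW480, 2.07 to 4.24 CPM in SW480-B and 0.4 to 1.39 CPM in SW480-gRNA-B-all. The endothelial marker VWF was at 0.689 to 0.896 CPM in SW480, 1.38 to 3.015 CPM in SW480-B and 1.67 to 4.34 CPM in SW480-gRNA-B-all. No tested leukocyte or endothelial marker passed. The part of these markers in the results was not tested.

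The promoters of the 49 genes were inspected first. Their sequences were not used to choose the genes, but E2F and CHR elements are known from genes of these roles. Matches by role are therefore no independent finding. RefSeq promoter windows of GRCh38.p14, reaching from 250 bases before to 50 bases after the start, were available for 39 of the 49 genes. The elements searched, on both strands, were the CHR, taken as TTTGAA or TTTAAA and known from promoters of mitotic genes, the E2F site, taken as TTTCCCGC, TTTGGCGC, TTTCGCGC or TTTGCCGC, the CCAAT box, and the E-box CACGTG, a site of MYC and MAX. The 200 bases before the start are shown for CCNB2 and TOP2A as mitotic genes with CHR and CCAAT elements, for MCM6 as a replication gene with E2F sites, for E2F2 as the member that passed a test, and for CDC25B as the member least like the others. Capitals mark matches to the elements on either strand, and E2F matches on opposite strands overlap in MCM6.
CCNB2: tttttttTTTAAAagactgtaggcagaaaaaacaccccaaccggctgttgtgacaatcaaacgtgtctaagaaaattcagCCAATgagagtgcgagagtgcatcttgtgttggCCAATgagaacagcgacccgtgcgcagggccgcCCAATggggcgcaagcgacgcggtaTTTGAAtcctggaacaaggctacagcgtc
TOP2A: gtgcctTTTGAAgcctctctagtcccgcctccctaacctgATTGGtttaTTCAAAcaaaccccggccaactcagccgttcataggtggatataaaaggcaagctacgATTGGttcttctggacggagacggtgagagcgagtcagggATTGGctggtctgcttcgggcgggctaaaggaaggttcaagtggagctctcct
MCM6: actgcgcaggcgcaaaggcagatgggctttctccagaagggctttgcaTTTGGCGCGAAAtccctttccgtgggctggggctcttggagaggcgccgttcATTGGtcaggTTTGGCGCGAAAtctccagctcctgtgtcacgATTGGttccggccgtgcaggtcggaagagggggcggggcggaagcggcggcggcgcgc
E2F2: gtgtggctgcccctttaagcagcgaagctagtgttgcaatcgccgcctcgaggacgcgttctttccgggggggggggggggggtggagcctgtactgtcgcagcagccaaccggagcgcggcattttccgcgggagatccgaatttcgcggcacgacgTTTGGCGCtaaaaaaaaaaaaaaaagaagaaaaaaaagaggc
CDC25B: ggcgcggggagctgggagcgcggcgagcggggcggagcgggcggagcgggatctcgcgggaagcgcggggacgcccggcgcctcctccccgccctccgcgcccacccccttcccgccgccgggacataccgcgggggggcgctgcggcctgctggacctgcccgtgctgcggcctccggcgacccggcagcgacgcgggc
These stretches lie at chr15:59104946-59105145 on the plus strand (CCNB2), chr17:40417897-40418096 on the minus strand (TOP2A), chr2:135876444-135876643 on the minus strand (MCM6), chr1:23531234-23531433 on the minus strand (E2F2) and chr20:3786751-3786950 on the plus strand (CDC25B).

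Matches were unevenly spread over the roles of the genes. An E2F match lay in 8 of the 10 promoters of replication and nucleotide supply genes, against 3.33% of all 27305 promoters of the same length, and in none of the 5 spindle checkpoint or 3 mitotic kinase promoters. A CHR match lay in all 8 promoters of the kinetochore, motor and spindle group and in 4 of the 5 of the spindle checkpoint group, against 24.3% of all promoters, but in only 2 of the 10 of the replication group. CCAAT boxes were found in 29 of the 39 promoters (74.4%, all promoters 35.7%) and the E-box in 7 of 39 (17.9%, all promoters 7.43%). Both CHR and E2F matches occurred in CDK1, CENPA and NUSAP1. A match describes letters in this window and says nothing of a bound factor.

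Levels of the 49 genes differed widely between libraries of the same line. In SW480, library 1 was lowest for 44 of the 49 genes and library 3 was highest for 43, whereas 40% and 37% of the 15319 genes tested in all comparisons showed these orders. Library 1 was also lowest for 38 of 49 in SW480-B (36.4% of all genes) and for all 49 in SW480-gRNA-B-all (43.8%). In 37 of the 49 genes library 1 was lowest in all 3 lines, compared with 13.2% of all genes. These counts describe the same 9 libraries for every gene and carry no test.

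**Figure D1:**
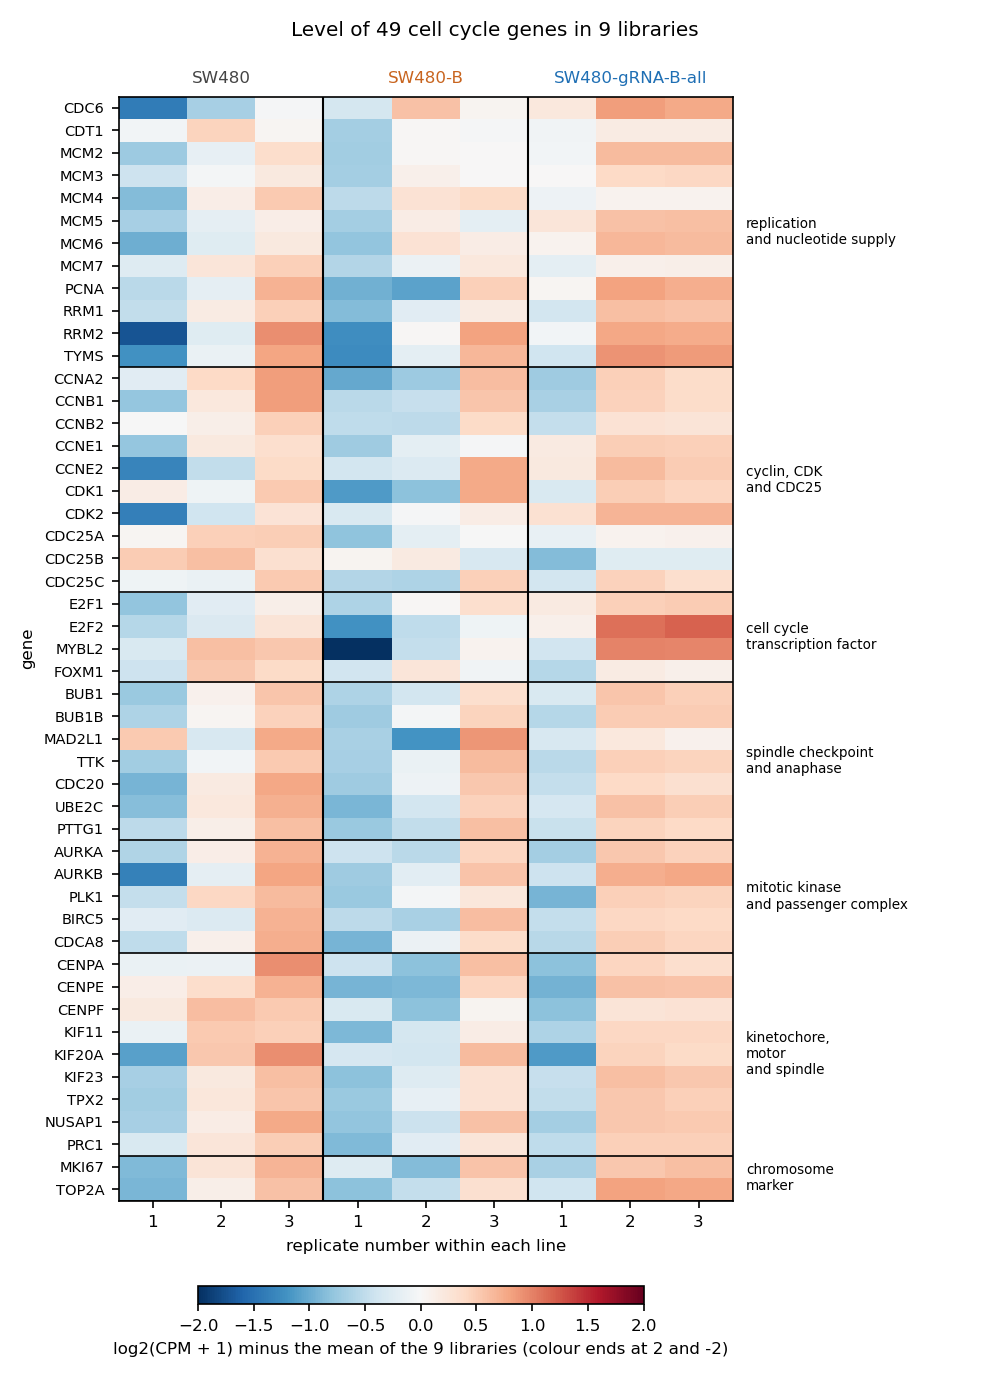
Level of each of the 49 genes (rows, by role group) in the 9 libraries (columns, replicate number within each line), as log2(CPM + 1) minus the mean of the 9 libraries. Replicate 1 of each line is below the mean (blue) for most genes, and CDC25B was lowest in replicate 3 of SW480 and SW480-B.

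The size of this difference was about 2-fold. The median difference between libraries 3 and 1, on the log2(CPM + 1) scale, was 1.12 in SW480, 1.06 in SW480-B and 0.85 in SW480-gRNA-B-all, while the median over all 15319 genes was -0.0048, 0.0085 and -0.0069. More than 2-fold higher in library 3 were 29, 28 and 18 of the 49 genes in these lines, against 11.3%, 3.85% and 1.4% of all genes, and no member was more than 2-fold lower. In SW480-B library 2 sat closer to library 1 (median difference 0.53) than to library 3 (0.64). In SW480-gRNA-B-all libraries 2 and 3 differed by a median of -0.03 only.

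**Figure D2:**
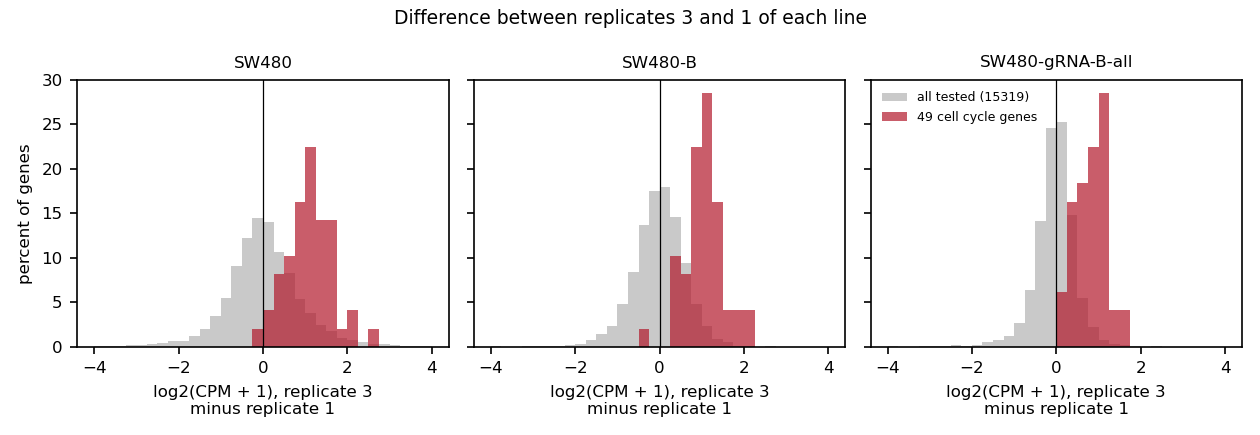
Distribution of the difference between replicates 3 and 1 of each line, in log2(CPM + 1), for the 49 cell cycle genes (red) and for all 15319 tested genes (grey), as percent of each set. The red distributions are shifted to higher values in all 3 lines, with medians of 1.12, 1.06 and 0.85.

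The widest range within a line was that of RRM2, the small subunit of ribonucleotide reductase that supplies deoxynucleotides. Its level was 138, 390 and 875 CPM in SW480, 194, 467 and 804 CPM in SW480-B, and 444, 786 and 768 CPM in SW480-gRNA-B-all. The SW480 libraries alone thus spanned 6.36-fold, and each line overlapped both others. MKI67, which encodes the proliferation antigen Ki-67, stood at 322, 715 and 954 CPM in SW480, at 498, 327 and 884 CPM in SW480-B and at 381, 868 and 899 CPM in SW480-gRNA-B-all. In SW480-B it was thus library 2 that held the lowest MKI67 level. TOP2A, the topoisomerase that untangles sister chromatids, was at 560, 1150 and 1598 CPM, at 602, 765 and 1318 CPM, and at 804, 1862 and 1812 CPM in the lines in this order. PCNA, the sliding clamp of the replication fork, was at 185, 239 and 438 CPM in SW480, at 138, 128 and 376 CPM in SW480-B and at 279, 472 and 449 CPM in SW480-gRNA-B-all. For all 4 genes the libraries of the 3 lines interleaved.

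Per length, PCNA and TOP2A headed the list. As a mean of the 9 libraries, PCNA had 214 and TOP2A 182.5 CPM per kilobase of exon, followed by MCM7 with 158, UBE2C with 151 and TPX2 with 137. MCM7 is a subunit of the replicative helicase, UBE2C the E2 enzyme of the anaphase-promoting complex, and TPX2 an activator of Aurora A. The lowest levels per kilobase were those of E2F2 with 3.37, CCNE1 with 4.54 and CCNE2 with 5.93. Between the lines, the highest and the lowest mean of a gene differed by a median of 1.37-fold (range 1.06 to 2.79), and for 47 of the 49 genes this was less than the largest fold between single libraries of a line. The same held for 77.6% of all 15319 genes, and single libraries vary more than means of 3.

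In 12 of the 49 genes library 1 was not the lowest in every line. CDC25B, a phosphatase that activates CDK1, showed 352.5, 378 and 310 CPM in SW480, 257.5, 281 and 199 CPM in SW480-B, and 136, 210 and 209.5 CPM in SW480-gRNA-B-all. It was lowest in library 3 of SW480 and SW480-B, where most members were highest, and its within-line spread (SD 0.27 on the log2 scale) was the smallest of all 49, whose median was 0.59. MAD2L1, a spindle checkpoint protein, was lowest in library 2 of SW480 with 76.3 CPM, between libraries at 138 and 162.5 CPM. Not among these 12 were CDT1 and CDC6, in which library 1 was lowest in every line. CDT1, which loads the helicase onto origins, ranged only from 42.1 to 92.7 CPM over the 9 libraries. CDC6, its partner in loading, moved with the members in SW480 (75.4, 126 and 196 CPM) but was highest in library 2 of SW480-B (156, 299 and 209 CPM) and stood at 231, 360 and 339 CPM in SW480-gRNA-B-all.

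Averaged over the 49 genes, the level relative to the mean of the 9 libraries was -0.56, 0.09 and 0.53 in SW480, -0.71, -0.29 and 0.34 in SW480-B, and -0.36, 0.50 and 0.47 in SW480-gRNA-B-all on the log2 scale. The line means of 0.02 ± 0.55, -0.22 ± 0.53 and 0.20 ± 0.49 (SD, n = 3) lay closer together than the libraries of any line. The members made up 0.646% to 1.52% of all counts. Intronic bases, a measure of unspliced RNA in the library, amounted to 5.57%, 4.6% and 3.61% in SW480, to 7.27%, 3.94% and 3.5% in SW480-B, and to 3.89%, 3.65% and 3.91% in SW480-gRNA-B-all. Library 1 thus had the highest intronic share in SW480 and SW480-B, where it had the lowest member level, and its part in the result was not tested. The ratio of 5′ to 3′ coverage was 0.77 to 0.835 in all libraries.

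**Figure D3:**
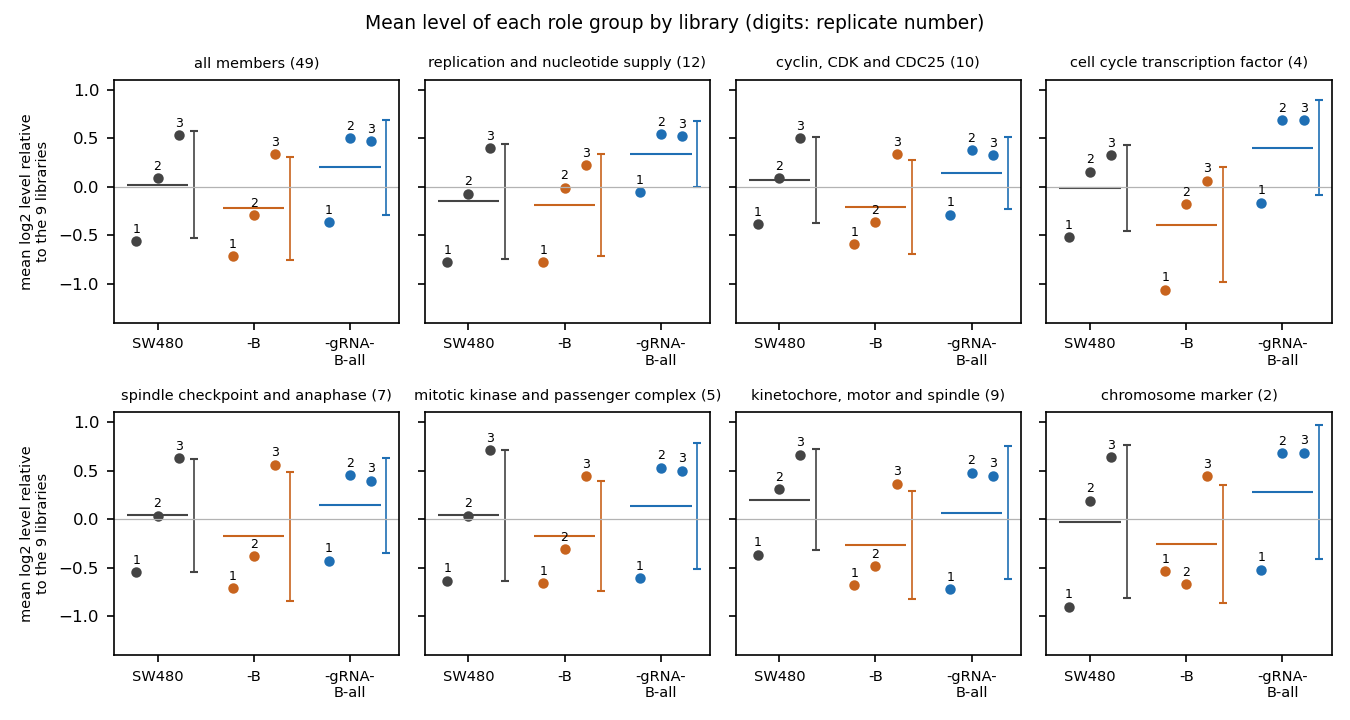
Mean log2 level of each role group in each library (points, digits give the replicate number) relative to the mean of the 9 libraries, with the line mean (horizontal bar) and, beside the points, an error bar of 1 SD to either side over 3 libraries. In the all-member panel the 3 line means of 0.02, -0.22 and 0.20 fall within the spread of every line.

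The question of whether reactivated endogenous BASP1 goes along with other levels of proliferation genes was addressed by comparing SW480-gRNA-B-all with SW480. None of the 49 genes passed edgeR's quasi-likelihood test at an adjusted p under 0.05, while 7.8% of 16100 genes did. At an unadjusted p under 0.05, 4 members were higher (11.5% of all genes) and 1 was lower (16.9%), and DESeq2 called 2 higher (6.08% of 19974 genes) and 1 lower (9.56%). The libraries of the lines did not overlap for 4 members that were higher (18% of all genes) and 1 that was lower (19.9%). The median log2 fold change was 0.04 over the members and -0.05 over all genes. The 95% intervals reached a median of 0.86 to either side, and for 13 of 49 members they excluded a change of 2-fold in both directions. For the remaining members a 2-fold change in at least 1 direction lay within the interval.

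The member closest to the threshold was CDC25B, at chr20:3767419-3786768 on the plus strand of GRCh37. Every library of SW480-gRNA-B-all lay below every SW480 library, by 0.91 on the log2 scale (SE 0.22, adjusted p = 0.0504 by edgeR). Over 9 alternatives of the fit its adjusted p ran from 0.0115 to 0.148, and 4 of them were under 0.05. CDC6 was 2.33-fold higher (log2 1.22, SE 0.36, adjusted p = 0.0834), again without overlap, and its adjusted p ran from 0.0144 to 0.229. The G1/S kinase CDK2 stood at 38, 75.5 and 121 CPM in SW480 and at 123, 160 and 160 CPM in SW480-gRNA-B-all, a log2 difference of 0.91 (SE 0.39, adjusted p = 0.18). E2F1, which drives replication genes, stood at 57.5, 85 and 108 CPM in SW480 and at 114, 140 and 142.5 CPM in SW480-gRNA-B-all (log2 0.66, SE 0.25, adjusted p = 0.14). MCM5, another helicase subunit, was at 88.6, 124 and 155 CPM and at 167, 212 and 215 CPM (log2 0.69, SE 0.23, adjusted p = 0.113). These 3 genes were without overlap between the lines but did not pass. With library 3 of SW480 left out, 5 members (CDC6, MCM5, CCNE2, CDK2 and E2F1) passed as higher and CDC25B as lower, with adjusted p from 0.0254 to 0.0459 and a member median of 0.44. In that fit 8.11% of 16846 genes passed as higher and 12.8% as lower.

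By role, the replication and nucleotide supply genes had 9 of 12 log2 fold changes above 0 with a median of 0.49, from CDC6 at the top to MCM7 at -0.17. Among the cyclin, CDK and CDC25 genes 5 of 10 were above 0 (median -0.04), from CDK2 to CDC25B. Of the 4 transcription factors E2F2 was at the top with 1.07 (SE 0.36, adjusted p = 0.111) and FOXM1 at the bottom with -0.30. The spindle checkpoint and anaphase genes had 5 of 7 above 0 and a median of 0.14, with the checkpoint kinase BUB1 at 0.23 and MAD2L1 at -0.40. The mitotic kinase and passenger complex genes had a median of 0.02, between AURKB, the kinase of the passenger complex, at 0.45 and PLK1 at -0.15. The kinetochore, motor and spindle genes had 4 of 9 above 0 and a median of -0.18, between the midzone motor KIF23 at 0.16 and the kinetochore protein CENPF at -0.47. MKI67 and TOP2A differed by 0.10 (SE 0.47, adjusted p = 0.902) and 0.43 (SE 0.46, adjusted p = 0.565), and PCNA by 0.47 (SE 0.36, adjusted p = 0.421).

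The balance between the replication and the kinetochore group was compared library by library, as the mean log2 level of the former minus that of the latter. It was -0.41, -0.37 and -0.26 in SW480, -0.10, 0.47 and -0.14 in SW480-B, and 0.67, 0.07 and 0.08 in SW480-gRNA-B-all. All 6 libraries with BASP1 thus stood above the 3 parental ones, and both BASP1 lines overlapped. This balance was chosen after the group medians had been seen and was not tested. Along the promoter elements, the 11 members with E2F but no CHR matches had a median log2 fold change of 0.52 between SW480-gRNA-B-all and SW480, and the 19 members with CHR but no E2F matches a median of -0.01, with ranges from -0.36 to 1.22 and from -0.47 to 0.50. Of those 11 members, 8 belong to the replication group, so that this split largely repeats the role groups and is no separate observation.

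The same genes were compared between the ectopic line SW480-B and SW480. Again no member passed the test by edgeR or by DESeq2, while 1.34% of 16106 genes passed by edgeR, and 1.89% of 20101 genes as higher and 3.75% as lower by DESeq2. Unadjusted p-values under 0.05 were found for 0 members in the higher direction (8.07% of all genes) and for 2 in the lower (7.76%), the kinetochore protein CENPF and the phosphatase CDC25A. Libraries without overlap were found for 0 members that were higher (10.6%) and 3 that were lower (11.8%). The median log2 fold change of the members was -0.25, with 39 of 49 below 0, and that of all genes was -0.0039. All 95% intervals but those of CENPF and CDC25A included 0, and their median reach was 0.90.

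CENPF was at 402, 540 and 506 CPM in SW480 and at 285, 198 and 365 CPM in SW480-B, a log2 difference of -0.73 (SE 0.29, adjusted p = 0.283). CDC25A, which releases CDK2 from its inhibitory phosphates, was at 63.1, 86.2 and 87.5 CPM in SW480 and at 34.7, 53.8 and 61.2 CPM in SW480-B (log2 -0.63, SE 0.27, adjusted p = 0.309). CDC25B was the other gene without overlap, with a log2 difference of -0.46 (SE 0.23, adjusted p = 0.373). All 9 kinetochore, motor and spindle genes lay below 0 (median -0.36), whereas the replication group was divided into 5 above and 7 below (median -0.04), with CDC6 at 0.77 and PCNA at -0.38. In the cyclin, CDK and CDC25 group (median -0.29) the G1/S cyclin CCNE2 was highest at 0.51. Of the transcription factors (median -0.30), E2F1 was at 0.26 and MYBL2 at -0.87 (SE 0.50, adjusted p = 0.435), its libraries reaching from 41.6 to 182 CPM in SW480-B and from 140 to 262 CPM in SW480. Median changes were -0.17 in the spindle checkpoint group, between TTK at 0.08 and MAD2L1 at -0.38, and -0.23 in the mitotic kinase group, between AURKB at 0.02 and PLK1 at -0.36. MKI67 and TOP2A were at -0.18 (SE 0.48, adjusted p = 0.891) and -0.26 (SE 0.45, adjusted p = 0.815). Leaving out library 3 of SW480 turned the member median to 0.10, and leaving out library 3 of SW480-B lowered it to -0.63. Same-numbered libraries of these lines deviated together, and within each pair the mean member level of SW480-B minus SW480 was -0.16, -0.38 and -0.20 in log2(CPM + 1), with 30, 39 and 43 of 49 members below 0 (52.1%, 49.4% and 53.7% of all genes). With the replicate number as a block no member passed either, with a median of -0.22.

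**Figure D4:**
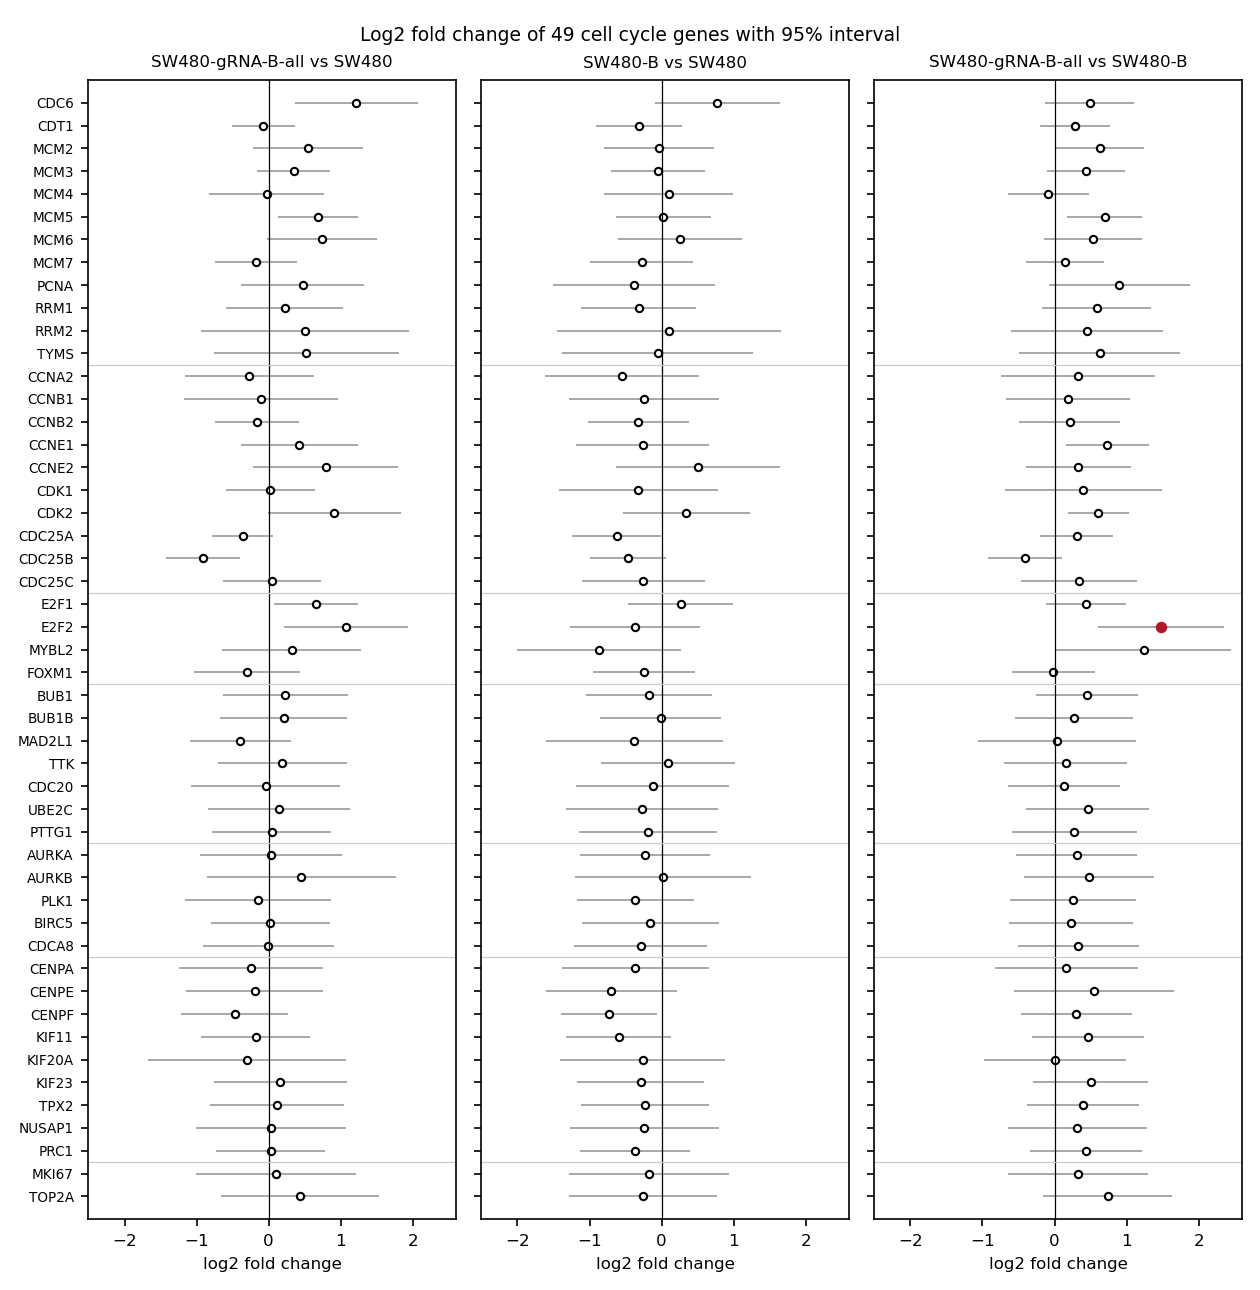
Log2 fold change of each gene with its 95% interval (edgeR) in the 3 comparisons, genes in rows by role group. Filled red marks the gene that passed at an adjusted p under 0.05, E2F2 in the right panel, and open points mark all others, most of whose intervals include 0.

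The BASP1 lines were then compared with each other. E2F2 was the 1 member that passed the test, against 8.76% of 15846 genes. At an unadjusted p under 0.05, 6 members were on the higher side in the CRISPR line (10.6% of all genes) and 0 lower (13.8%), and 4 members were higher without overlap (15%) and 0 lower (15.4%). The median log2 fold change was 0.34, with 46 of 49 above 0, and -0.0044 over all genes. This comparison shares its libraries with the others and adds no independent evidence on either line.

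E2F2 encodes an activating E2F factor. It was at 6.34, 11 and 15.1 CPM in SW480-B and at 17.3, 35.7 and 37.3 CPM in SW480-gRNA-B-all, with 10.5, 12.9 and 19.4 CPM in SW480. All SW480-gRNA-B-all libraries exceeded those of SW480-B, and the fold was 2.79 (log2 1.48, SE 0.38, 95% interval 0.60 to 2.35, adjusted p = 0.0499 by edgeR). The call was marginal. It was kept in 3 of 9 alternatives of the fit, whose adjusted p ran from 0.00183 with DESeq2 to 0.16 with the near-identical pair of libraries counted as 1. It was also kept without replicate 3 of SW480-B (1.80) and without replicate 1 of SW480-gRNA-B-all (1.77). Without replicate 1 or 2 of SW480-B (1.21 and 1.48) or replicate 2 or 3 of SW480-gRNA-B-all (1.35 and 1.31) it did not pass. In GRCh37 the gene lies at chr1:23832930-23857725 on the minus strand.

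The 5 other members with an unadjusted p under 0.05 were CDK2, MCM5, CCNE1, MYBL2 and MCM2. Their log2 differences were 0.61, 0.70, 0.73, 1.24 and 0.63, with adjusted p from 0.0821 for CDK2 to 0.196 for MCM2. PCNA differed by 0.90 (SE 0.42, adjusted p = 0.239), TOP2A by 0.74 (SE 0.39, adjusted p = 0.293) and MKI67 by 0.33 (SE 0.43, adjusted p = 0.683). CDC25B was the member furthest below 0, at -0.41 (SE 0.22, adjusted p = 0.307). With library 3 of SW480-B left out, PCNA, CCNE2, CDK1 and E2F2 passed, where 6.28% of 16357 genes passed as higher and 7.81% as lower, and the member median was 0.73.

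Other genes of the pathway were examined as lists beside the members. Among 8 G1 cyclins, CDKs and pocket proteins, only CDK6, the partner of the D cyclins, passed as lower against SW480. Its level was 745, 597 and 190 CPM in SW480, 95.6, 99.5 and 73.5 CPM in SW480-B, and 66.7, 60.2 and 59.2 CPM in SW480-gRNA-B-all. The log2 difference was -3.05 in SW480-gRNA-B-all (SE 0.49, adjusted p = 0.0195) and -2.48 in SW480-B (SE 0.47, adjusted p = 0.0499). With 1 library left out the former passed without replicate 1 or 3 of SW480 (-2.67 and -3.41) and the latter without replicate 3 of SW480 (-2.87). Without any other single library neither passed, with differences from -3.09 to -2.89 and from -2.55 to -2.11. The CDK6 call of SW480-gRNA-B-all was also lost with its near-identical replicates 2 and 3 summed (-3). Cyclin D1 (CCND1) spanned 392, 1532 and 2874 CPM in the SW480 libraries and 2282 to 3531 CPM in the other 6, and CCND2 went the opposite way in SW480 with 285, 199 and 49.5 CPM. CCND2 was at 51.9, 26.8 and 9.68 CPM in SW480-B and at 42.1, 21.4 and 24.8 CPM in SW480-gRNA-B-all, and did not pass in either.

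Of 8 CDK inhibitors, CDKN1C (p57) passed as lower in SW480-gRNA-B-all, with 2.41, 2.64 and 3.31 CPM against 7.99, 9.96 and 14.6 CPM in SW480 (log2 -1.97, SE 0.32, adjusted p = 0.0202) and 11.8, 5.95 and 8.02 CPM in SW480-B (log2 -1.63, SE 0.33, adjusted p = 0.0206). CDKN1A (p21), the inhibitor induced by p53, was at 31.2, 64.5 and 91.4 CPM in SW480 and at 121, 121 and 125 CPM in SW480-gRNA-B-all and did not pass. The CDKN1C calls held without replicate 1 or 3 of SW480 (-2.13 and -1.67) and without replicate 2 or 3 of SW480-B (-1.84 and -1.68), and were lost without any other single library, with differences from -2.10 to -1.86 and from -1.76 to -1.33. None of 34 other replication genes, 13 further E2F, DP and DREAM genes or 10 p53 targets passed in any comparison. Of 38 other mitosis genes, MAD1L1, a spindle checkpoint protein that binds MAD2, passed as higher in SW480-gRNA-B-all (log2 0.70, SE 0.16, adjusted p = 0.0496), with 36.5, 46.4 and 49.8 CPM in SW480 against 73.5, 70.8 and 71.6 CPM. Its call held without replicate 1 or 3 of SW480 (0.59 and 0.81) and was lost without any other single library (0.69 to 0.76). It was also lost with the replicate block, with GC and length offsets, without a filter and with the near-identical pair counted as 1 (0.62 to 0.73), and its adjusted p over 9 alternatives ran from 0.01 to 0.174.

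The lists differed in how far they shared the order of the libraries. The mean log2 level of the other mitosis genes was -0.50, 0.05 and 0.44 in SW480, -0.53, -0.24 and 0.29 in SW480-B, and -0.38, 0.44 and 0.42 in SW480-gRNA-B-all. The other replication genes gave -0.28, -0.05 and 0.37 in SW480. The CDK inhibitors gave 0.19, 0.09 and 0.29 there, and the G1 list -0.05, 0.31 and 0.28, with library 3 lowest in SW480-B (-0.13, 0.0022 and -0.28). The mean of the p53 targets ran the other way in SW480 (0.43, 0.22 and -0.23), led by GADD45A with 178, 65.2 and 31.5 CPM and SESN2 with 92.7, 41.7 and 9.67 CPM. The list was not uniform, since ZMAT3 rose (18.9, 34.7 and 33.4 CPM) and PLK2 was highest in library 2 (50.2, 68.8 and 51 CPM). CDKN1A, outside this list, rose as well (31.2, 64.5 and 91.4 CPM). MYC, a growth-promoting transcription factor, was at 800, 437 and 228 CPM in SW480, at 401, 421 and 309 CPM in SW480-B, and at 289, 125 and 125 CPM in SW480-gRNA-B-all. Its highest SW480 library was thus the one with the lowest member level. MYC differed by -1.45 (SE 0.53, adjusted p = 0.133) between SW480-gRNA-B-all and SW480, by -0.34 (SE 0.42, adjusted p = 0.732) between SW480-B and SW480, and by -1.07 (SE 0.34, adjusted p = 0.0924) between the BASP1 lines on the log2 scale. Over 9 alternatives the adjusted p of the first ran from 0.0295 to 0.333 and passed with the replicate block and with DESeq2, and it passed without replicate 3 of SW480 (-1.76). That of the last ran from 0.0159 to 0.301 and passed in 3 of 9, and it passed without replicate 1 of SW480-gRNA-B-all (-1.58).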

How the data were processed

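Poly(A)-selected RNA of 9 libraries was sequenced in pairs on a NovaSeq. The authors deposited raw counts per Ensembl gene, 1 file per library, with a file of coverage metrics. The submitters' processing notes name the build GRCh37, and the paper's methods an analysis with RaNA-Seq. The counting program is not given in the sources used here. Closing lines that name no gene (among them 5.23% to 9.93% of all reads as no feature) stayed out of library sizes. Symbols came from a table of Ensembl identifiers and names, which matched 55665 of 63677 identifiers, and positions and exon lengths from GENCODE v44 lifted to GRCh37.

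Counts were scaled by TMM and tested per pair of lines with edgeR 4.0.16 (R 4.3.3, glmQLFit robust) on genes kept by filterByExpr (at least 10 counts, 15 in total). Benjamini-Hochberg adjustment covered all genes tested, with 0.05 as threshold. Levels are CPM, as edgeR computes them from counts on genes, scaled by TMM over the 9 libraries, and relative levels use log2(CPM + 1). Intervals are 95%. DESeq2 1.42.0 and the alternatives of the closing section were run likewise.

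Named are MKI67, PCNA, TOP2A, BASP1 and MYC, members that passed (up to 12 by adjusted p), the highest and lowest member of each role group against SW480, and up to 5 passing genes per pathway list and direction. Other members named, with MCM5, RRM2, CDT1 and the listed non-members that did not pass among them, were chosen after their values were seen. The members and lists were chosen with earlier results of these data known. Same-numbered libraries of SW480-B and SW480 deviated together (correlations 0.308, 0.405 and 0.418). The fit with the number as a block treats them as pairs, although the labels name no pairing. Those of SW480-gRNA-B-all and SW480 did so for 2 of 3 numbers only (0.321, -0.037 and 0.326), and a block joins libraries that share a number there.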

Additional observations from a re-analysis of the deposited data

Results flagged for a closer look

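The effects of the BASP1 lines against SW480 differed for E2F2 and CDKN1C by a test of the difference itself, the direct edgeR comparison of the lines. E2F2 stood 1.48 higher in the CRISPR line than in the ectopic line on the log2 scale (adjusted p = 0.0499), with all 3 libraries above all 3. CDKN1C was lower, at -1.63 (adjusted p = 0.0206), again without overlap. Both calls were lost in some of the fits with 1 library left out. The E2F2 call was marginal and was lost in most alternatives of the fit, among them the near-identical pair counted as 1. Against SW480, E2F2 passed in neither line by edgeR. CDKN1C passed against SW480 in SW480-gRNA-B-all, and that call was lost with the near-identical pair counted as 1 (-1.998). Groups of 3 libraries were not screened for single outlying libraries.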

How the results depend on the processing

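Between SW480-gRNA-B-all and SW480, where no member passed, 1 passed as higher with the replicate number as a block and 2 with DESeq2, and 1 passed as lower with all 9 libraries in 1 fit, with DESeq2, with GC and length offsets and without a filter. Leaving out 1 library gave 0 to 5 higher and 0 to 1 lower. Between the BASP1 lines the 1 call became 0 with RLE size factors, all 9 libraries in 1 fit, chromosome arm offsets, a minimum of 1 CPM in 3 libraries, GC and length offsets, replicates 2 and 3 summed, or an adjusted p under 0.01. It became 5 with the replicate block, 2 without a filter, and 0 to 4 with 1 library left out. Between SW480-B and SW480 no member passed under any alternative. For SW480-gRNA-B-all the block joins libraries that share only a number. Member medians moved by less than the SD of the mean member level between replicates (0.52), and ran from -0.15 to 0.44, -0.63 to 0.10 and 0.17 to 0.73 with 1 library left out (SW480-gRNA-B-all and SW480-B against SW480, then the BASP1 lines).

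Against SW480 in SW480-gRNA-B-all, MCM7 turned to 0.18 with arm offsets and MKI67 to -0.060 with replicates summed. In SW480-B, AURKB turned to -0.016 with all 9 libraries, -0.21 with arm offsets, -0.021 with GC and length offsets and -0.011 without a filter. BASP1 between the BASP1 lines turned to 0.014 with arm offsets. With 1 library left out, differences of SW480-gRNA-B-all from SW480 crossed 0 for BUB1 (-0.033 to 0.58), KIF23 (-0.10 to 0.49), MCM7 (-0.34 to 0.025), MKI67 (-0.21 to 0.48) and PLK1 (-0.40 to 0.19). Those of SW480-B crossed 0 for AURKB (-0.43 to 0.69), MKI67 (-0.66 to 0.17), MYC (-0.68 to 0.21), PCNA (-1.09 to 0.053), TOP2A (-0.67 to 0.10) and TTK (-0.37 to 0.43), as did BASP1 between the BASP1 lines (-0.15 to 0.22). None of these differences that turned had passed the test, and the cause was not tested.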

Other observations

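Further members had wide ranges within SW480, with library 1 lowest and library 3 highest. AURKB spanned 4.54-fold within SW480 (37.9, 86.7 and 172 CPM), the midzone motor KIF20A 4.06-fold (58.9, 183 and 239 CPM) and TYMS, which makes thymidylate, 4.02-fold (90.3, 191 and 363 CPM). MYBL2 had the widest range over all 9 libraries, 8.32-fold, from 41.6 CPM in library 1 of SW480-B to 346 CPM in library 2 of SW480-gRNA-B-all. At the other end, MCM4 spanned 1.13-fold within SW480-gRNA-B-all, where CDC25A (1.18-fold) and CDT1 (1.19-fold) varied little as well.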
